A study of Xenopus laevis with 9 samples.

Results

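The mRNAs described here encode subunits of 2 rotary proton machines of the cell, the mitochondrial ATP synthase and the vacuolar ATPase. They were taken from the study's own gene table by frog symbol, as protein-coding entries whose symbol starts with atp5 or atp6v, and joined by gene identifier to the counts. The part of that table in hand has 1999 entries, 1901 of them mRNAs, and it gave 7 members among the 44478 genes of the count table. Of these, 4 belong to the ATP synthase (atp5f1b.S, atp5f1c.L, atp5mc1.S and atp5if1.S) and 3 to the vacuolar ATPase (atp6v0e1.L, atp6v1e1.L and atp6v1f.L). All 7 passed the filter on low counts, with 20148 genes tested. Both enzymes have more subunits than this, and the reference gene table of the frog lists 27 protein-coding symbols starting with atp5 and 36 starting with atp6v, so the 7 are a sample of each enzyme and not its whole set. LOC108711609, which the study's table matches to human ATP6V1B2, is described beside them and is not counted as a member.

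RNA was sequenced from *Xenopus laevis* egg extract of wild-type females, a nearly undiluted cytoplasm, in 3 conditions with 3 replicates each. The input was the extract before filtration (time 0). T1 was the filtrate through 30 nm pores collected early and at low pressure, and T2 the filtrate collected late and at high pressure, so time and pressure cannot be told apart. All extracts held cytochalasin D and nocodazole, which keep actin and microtubules from assembling, protease inhibitors and sucrose. The filtrates ask which RNAs pass the pores and which are retained.

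The ATP synthase sits in the inner mitochondrial membrane, where protons flowing through its membrane ring turn a central stalk and drive the making of ATP in the F1 head. The vacuolar ATPase is built on the same plan and runs the other way: its V1 head splits ATP to pump protons through the membrane sector Vo into lysosomes, endosomes and other compartments. All the subunits described here are encoded in the nucleus. An egg is stocked with such maternal mRNAs, and the values below measure the mRNAs and not the proteins or the organelles.

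Between 65503682 and 90000652 reads were counted on genes per input library, 23509338 to 37265313 per T1 library and 60330615 to 93451602 per T2 library. Levels are given in CPM, counts per 1e6 reads on genes, with each library scaled by TMM, edgeR's normalization factor. A CPM on this scale is relative to the other RNA of its library, and because of the TMM scaling it is not an exact share. A higher value in a filtrate means more of an mRNA relative to the others that passed. The amount of RNA that passed per volume cannot be read from it. Replicates differed most at T1: the log2 levels of input replicates correlated at 0.979 on average, those of T1 replicates at 0.825 and those of T2 replicates at 0.945. Reads that mapped nowhere made up 7.23% to 7.71% of the input, 12.4% to 20.1% of T1 and 7.04% to 9.24% of T2, and reads that mapped to several places 1.69% to 1.85%, 4.06% to 6.76% and 1.98% to 2.85%, and the part of these shifts in the results below was not tested. Levels of 9 egg and oocyte markers, among them zp4.L of the egg coat and gdf9.L of the oocyte, were summed as a description. The sum was 1460 to 1733 CPM in the input, 1594 to 2195 at T1 and 1531 to 1699 at T2. Its largest parts in the input were cpeb1.L, gdf9.L and ccnb2.L, with means of 546, 365 and 354 CPM. The mean of zp4.L was 60.3 CPM. Single markers moved in both directions at T1, as given below, and the sum does not test the origin of the RNA. The 2 collagen genes that stood for other cells summed to at most 9.35 CPM in any input library, 0.0552 CPM in any T1 library and 4.60 CPM in any T2 library. Most of the input maximum was LOC108711240, with 8.66 CPM in input replicate 2 and at most 0.0441 CPM in the other input libraries. All 7 members have a second copy in this tetraploid frog (.L or .S), and reads that both copies share are uncertain in all values.

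In the early filtrate 3 of the 4 ATP synthase mRNAs and 1 of the 3 vacuolar ATPase mRNAs passed the test for a rise over the input. At T1, 4 of the 7 members rose at an adjusted p under 0.05 and 0 fell, where 6.44% of all tested genes rose (1297 of 20148) and 5.08% fell. The 4 were atp5f1b.S, atp5f1c.L and atp5mc1.S of the ATP synthase and atp6v0e1.L of the vacuolar ATPase. In 5 of the 7, these 4 and atp5if1.S, all 3 T1 libraries lay above all 3 input libraries, which 15.7% of tested genes showed. The median log2 fold change was 2.57 over the 4 mitochondrial members and 2.00 over the 3 vacuolar members, against -0.089 over all tested genes. The vacuolar value depended on the setting, being 0.40 with limma voom, 0.76 with a replicate block and 1.36 without T1 replicate 1.

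The F1 head of the ATP synthase is represented by its catalytic and its rotating subunit. atp5f1b.S (XBXL10_1g10736; chromosome 2S, 130370415 to 130375921, v10.1 assembly) encodes the beta subunit, which carries the sites where ATP is made. Its mRNA was the most read of the 4 ATP synthase mRNAs, with 114, 117 and 126 CPM in input replicates 1 to 3, 402, 695 and 800.3 at T1, and 249, 428 and 311 at T2. Both filtrates lay wholly above the input, and T1 reached highest although its replicate 1 lay within the T2 range. At T1 the log2 fold change was 2.41 (standard error 0.307, adjusted p = 0.00310), a 5.31-fold rise.

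**Figure D1:**
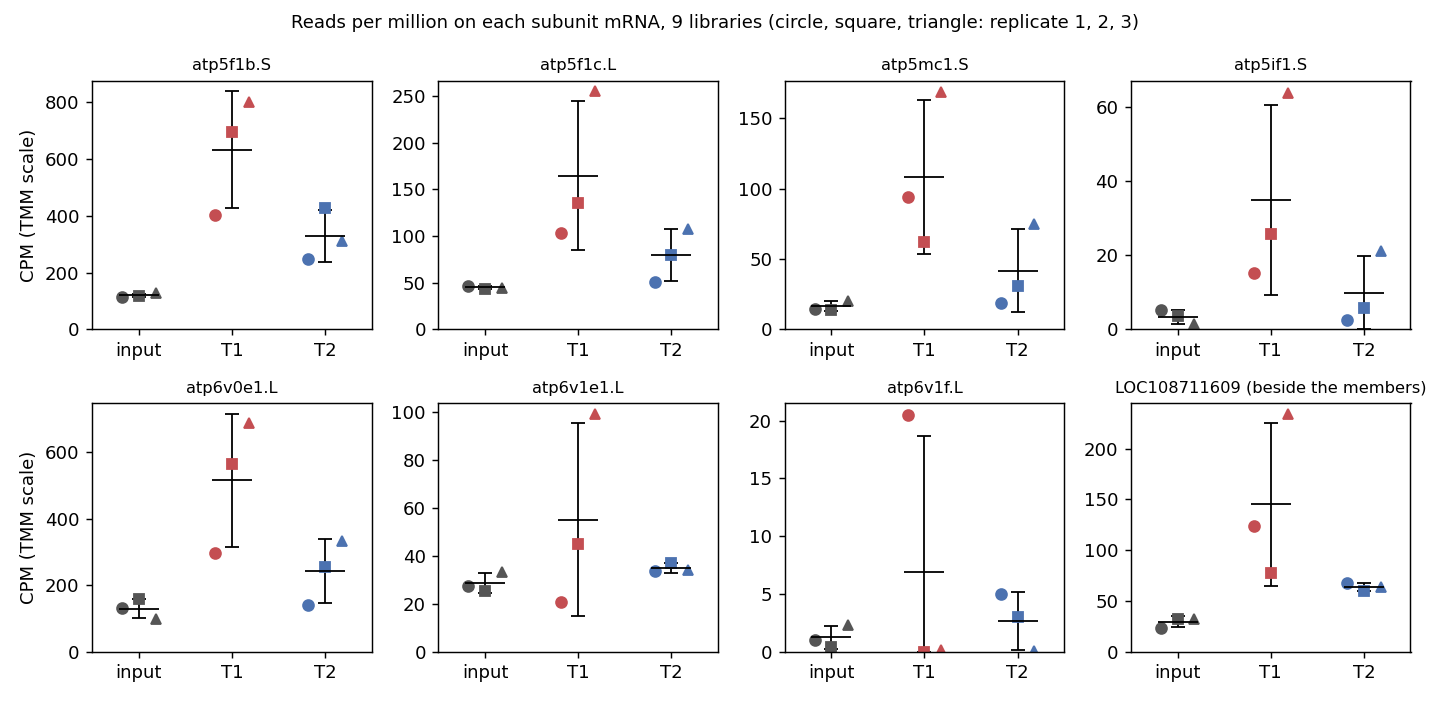
Level of each subunit mRNA in CPM on the TMM scale (y axis, starting at 0 and scaled per panel) in input, T1 and T2, with 1 symbol per library and the mean and SD (n = 3) in black, cut off at 0. The T1 libraries lie above the input libraries for all 4 ATP synthase mRNAs, for atp6v0e1.L and for LOC108711609, whereas atp6v1f.L is carried at T1 by replicate 1 alone.

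atp5f1c.L (XBXL10_1g12847; chromosome 3L, 89613102 to 89624250) encodes the gamma subunit, the central stalk that turns inside the head. Its input level was the steadiest of the members, at 46.5, 43.6 and 44.7 CPM. It was 103, 135 and 255 CPM at T1 and 51.1, 79.9 and 107 CPM at T2, again with all libraries of both filtrates above all input libraries. The rise at T1 was 1.87 on the log2 scale (standard error 0.415, adjusted p = 0.0194).

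The membrane sector Fo is represented by atp5mc1.S (XBXL10_1g10848; chromosome 2S, 138275037 to 138283722), for the c subunit that forms the proton-driven ring; the study's table matches it to human ATP5MC2, another gene for the same subunit. Its mRNA had 14.6, 14.0 and 20.3 CPM in the input, 94.0, 62.3 and 169 CPM at T1 and 18.8, 31.0 and 74.7 CPM at T2. T1 lay wholly above the input, and 1 T2 library lay within the range of the input. On the log2 scale the rise at T1 was 2.73 (standard error 0.616, adjusted p = 0.0207).

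The gene atp5if1.S (XBXL10_1g10057; chromosome 2S, 74149373 to 74153707) encodes the inhibitory factor that stops the enzyme from running backwards and splitting ATP when mitochondria lose their membrane potential. Its mRNA was rarer, with 5.15, 3.70 and 1.42 CPM in the input, 15.1, 25.7 and 63.8 CPM at T1 and 2.45, 5.86 and 21.2 CPM at T2. Every T1 library was above every input library, yet the T1 libraries themselves spread from 4.40 to 18.6 times the mean of the input. Its log2 fold change of 3.35 (standard error 1.17) was the highest of the 7 and did not pass the test (adjusted p = 0.0800). It passed with DESeq2's Wald test (adjusted p = 0.00173) and without T1 replicate 1 (adjusted p = 0.0482).

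The vacuolar ATPase mRNAs differed more among themselves. atp6v0e1.L (XBXL10_1g12335; chromosome 3L, 51067158 to 51077602) encodes subunit e, a small membrane protein of the Vo sector. It had 131, 157 and 99.5 CPM in the input, 295, 565 and 686 CPM at T1 and 140.3, 254 and 333 CPM at T2. T1 lay wholly above the input, and T2 replicate 1 lay within the input range. At T1 it rose by 2.00 on the log2 scale (standard error 0.391; adjusted p = 0.0116).

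The V1 head is represented by a peripheral and a central stalk subunit, and neither passed the test. atp6v1e1.L (XBXL10_1g11551; chromosome 3L, 7490828 to 7499278) encodes subunit E of the peripheral stalk. It had 27.4, 25.1 and 33.3 CPM in the input, 20.7, 45.0 and 99.2 CPM at T1 and 33.6, 37.0 and 33.9 CPM at T2. The lowest and the highest of its 9 values were both at T1, while its T2 libraries had an SD of 1.88 CPM (n = 3). At T1 its log2 fold change was 0.94 (95% interval -0.38 to 2.26, adjusted p = 0.310), and the interval includes both 0 and the value of atp6v0e1.L.

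atp6v1f.L (XBXL10_1g12894; chromosome 3L, 93114187 to 93116125) encodes subunit F of the central stalk and had few reads. It had 69, 29 and 219 reads in the input, 742, 0 and 2 reads at T1 and 501, 278 and 1 reads at T2, or 1.02, 0.39 and 2.33 CPM, then 20.5, 0 and 0.107 CPM, then 4.98, 3.01 and 0.0167 CPM. The 0 reads of T1 replicate 2 allow up to 0.0855 CPM (3 reads, counting error only). The other low libraries were T1 replicate 3 and T2 replicate 3, so presence and near absence occurred within a condition and not between conditions. Its fitted T1 value of 2.46 (log2 scale, standard error 2.51, adjusted p = 0.557) rested on T1 replicate 1. Without that library it was -4.55 (adjusted p = 0.254), and it was also negative with limma voom and with a replicate block, so no direction can be given for this gene.

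LOC108711609 (XBXL10_1g13675; chromosome 3L, 137578473 to 137607078), whose human match ATP6V1B2 is a B subunit of the V1 head, was more even. It had 23.2, 32.6 and 32.5 CPM in the input, 123.5, 77.4 and 234 CPM at T1 and 67.2, 59.4 and 63.5 CPM at T2. The 3 conditions did not overlap at all. Taken singly, T1 lay above the input in 15.7% of tested genes, T2 above the input in 14.1% and T2 below T1 in 7.73%. LOC108711609 rose by 2.30 on the log2 scale at T1 (standard error 0.439, adjusted p = 0.0104). Its value and that of atp6v1e1.L show a V1 subunit mRNA that rose and one whose change was not detectable at this replication, and the difference between the 2 genes was not tested.

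The calls at T1 were lost when an input library was left out, while the fold changes moved little. Without input replicate 1, 2 or 3 only atp5f1b.S kept an adjusted p under 0.05 (0.0288, 0.0320 and 0.0221). For atp5f1c.L the adjusted p was then 0.0914, 0.0971 and 0.0865, for atp5mc1.S 0.104, 0.105 and 0.0754, for atp6v0e1.L 0.0649, 0.0511 and 0.0675, and for LOC108711609 0.0697, 0.0588 and 0.0514. The log2 fold changes in these fits were 1.90, 1.85 and 1.87 for atp5f1c.L and 2.00, 2.16 and 1.84 for atp6v0e1.L. Without T1 replicate 1, 2 or 3 the number of members called was 5, 4 and 4. Over all tested genes the count fell from 2320 to 420, 417 and 590 without input replicate 1, 2 or 3. It was 4083, 2687 and 2862 without T1 replicate 1, 2 or 3.

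**Figure D2:**
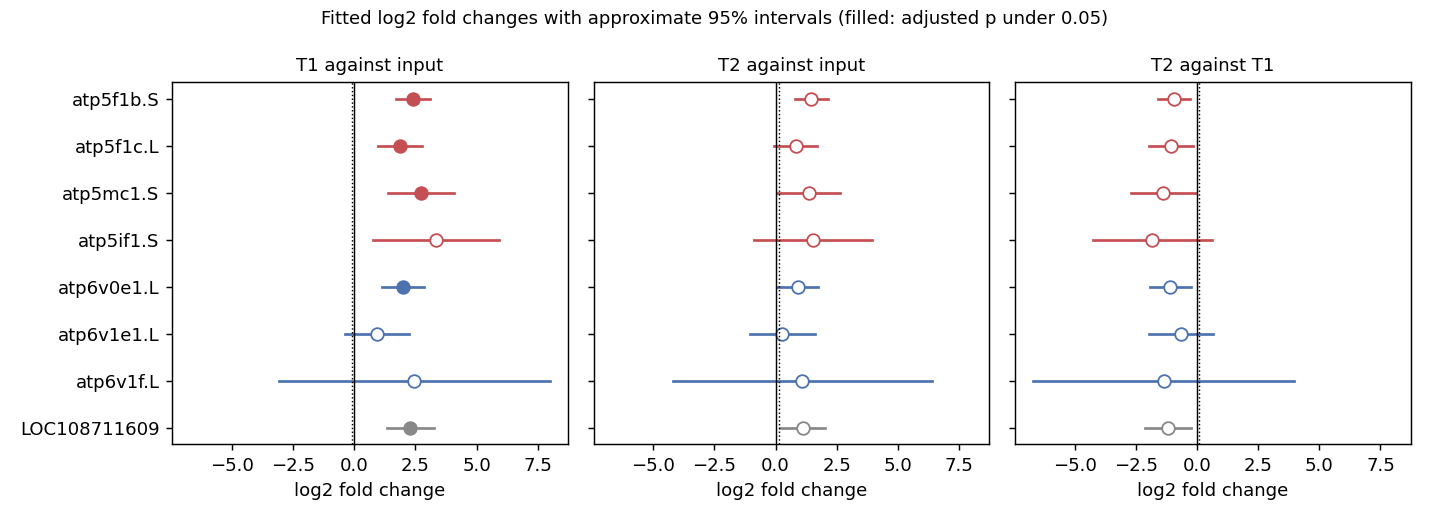
Fitted log2 fold changes (x axis) of the 4 mitochondrial (red) and 3 vacuolar (blue) members and of LOC108711609 (grey), with approximate 95% intervals, in the 3 comparisons; filled points passed an adjusted p of 0.05 and the dotted line is the median of all tested genes. At T1 4 members are filled, and in the comparisons with T2 none are.

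The T1 libraries also differed in a shared way. Of the 7 members, 6 were highest in T1 replicate 3 among the T1 libraries, against 32.7% of tested genes, and this library had the fewest reads on genes (23509338) and the largest unmapped share (20.1%). The part of depth in this was not tested. Relative to the mean of the input, atp5f1b.S was 3.37, 5.83 and 6.72 times as high in T1 replicates 1 to 3 and atp6v0e1.L 2.29, 4.38 and 5.31 times. The same order held in atp5f1c.L (2.30, 3.01 and 5.69), atp6v1e1.L (0.723, 1.57 and 3.46) and atp5if1.S, and not in atp5mc1.S (5.77, 3.83 and 10.3) or atp6v1f.L.

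In the late filtrate the mean levels of the members lay between those of the input and T1, although the T2 libraries overlapped T1 in every member. In atp6v1e1.L and atp6v1f.L this order rested on a single T1 library. Against the input, 0 of the 7 members and 0% of all tested genes passed an adjusted p under 0.05 at T2 in the edgeR fit to all 9 libraries. At an unadjusted p under 0.05 there were 1570 genes, 3 of the members among them, and DESeq2's Wald test called 251 genes, limma voom 613 and an edgeR fit to the input and T2 libraries alone 192. Without T1 replicate 3 the edgeR count was 34. The fold changes were all positive, from 0.28 for atp6v1e1.L to 1.52 for atp5if1.S, with a median of 1.41 over the mitochondrial and 0.91 over the vacuolar members against 0.14 over all genes. That of atp6v1f.L turned negative with limma voom (-0.26) and with a replicate block. The vacuolar median was 0.27 with limma voom, 0.31 with a replicate block and 0.26 without T2 replicate 1. The 3 T2 libraries all lay above the 3 input libraries for atp5f1b.S, atp5f1c.L and atp6v1e1.L, 3 of 7 members against 14.1% of tested genes, although for atp6v1e1.L the gap was small.

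The beta subunit mRNA atp5f1b.S was nearest to the threshold at T2. Its log2 fold change was 1.47 (standard error 0.298, 95% interval 0.81 to 2.12), with an unadjusted p of 0.000489 and an adjusted p of 0.278. It was called by DESeq2's Wald test (adjusted p = 0.0162), by limma voom with weights per condition (0.00475) and in a fit to the input and T2 libraries alone (0.0326), and in no other setting. The other 2 members with an unadjusted p under 0.05 were atp5mc1.S (log2 fold change 1.35, unadjusted p = 0.0432) and atp6v0e1.L (0.91, 0.0366). For LOC108711609 the log2 fold change was 1.11 (adjusted p = 0.476).

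T2 replicate 3 weighed most in the late values of the rarer mitochondrial mRNAs. It held 21.2 CPM of atp5if1.S against 2.45 and 5.86 in the other T2 libraries, and 74.7 CPM of atp5mc1.S against 18.8 and 31.0. Without it the mitochondrial median at T2 dropped from 1.41 to 0.58. atp5f1b.S was highest in T2 replicate 2.

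Between T1 and T2 the test called no member. At T2 against T1, 0 of the 7 members passed an adjusted p under 0.05, where 0.00993% of tested genes were lower at T2 (2 of 20148) and 4578 genes had an unadjusted p under 0.05. All 7 fitted fold changes were negative, although that of atp6v1f.L turned positive with limma voom, with a replicate block and without T1 replicate 1 (5.62), and that of atp6v1e1.L without T1 replicate 3 (0.086). The values had medians of -1.22 over the mitochondrial and -1.09 over the vacuolar members against 0.094 over all genes. The adjusted p was 0.125 for atp5f1b.S (log2 fold change -0.94), 0.174 for atp5f1c.L (-1.05), 0.201 for atp5mc1.S (-1.38) and 0.153 for atp6v0e1.L (-1.09). With DESeq2's Wald test, and without T1 replicate 1, atp5f1b.S (adjusted p = 0.0206 and 0.0250) and atp6v0e1.L (0.0365 and 0.0435) passed. Those fits also called more of all tested genes, 3518 (1530 of them lower at T2) and 2043 (610 lower), against 20. In 0 of the 7 did all T2 libraries lie below all T1 libraries, against 7.73% of tested genes. LOC108711609 outside the members did so, with a log2 fold change of -1.19 (adjusted p = 0.156).

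The order of the mean levels was input, T2, T1 in all 7 members. In atp6v1f.L it held only through T1 replicate 1 and in atp6v1e1.L only through T1 replicate 3. Without T1 replicate 3 the fitted T2 against T1 log2 fold change of atp6v1e1.L was 0.086. The share of all tested genes with this order was not computed, so nothing is concluded from the count. For atp5f1b.S the means were 119 ± 6.42, 329.6 ± 91.0 and 632 ± 206 CPM (SD, n = 3 each), and input and T2 were separated beyond their spread whereas T2 and T1 overlapped. For atp5f1c.L they were 44.9 ± 1.44, 79.4 ± 28.0 and 165 ± 80.2 CPM, with the same separation. For atp6v0e1.L they were 129, 242 and 516 CPM, and both neighbouring pairs overlapped. Both filtrate comparisons share the input libraries, and the T2 against T1 comparison shares the T1 libraries with the first.

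The 2 enzymes were then set against each other inside each library, where the scaling of the library all but cancels. The measure was the mean log2(CPM + 1) of the 4 mitochondrial mRNAs minus that of the 3 vacuolar mRNAs, and gene lengths cancel when the measure is compared between conditions. Input libraries had values of 0.46, 0.46 and 0.052, T1 libraries 0.79, 1.92 and 2.36, and T2 libraries -0.0050, 0.63 and 1.93. All T1 values lay above all input values, and T2 spanned both. The means were 0.32 ± 0.23, 1.69 ± 0.81 and 0.85 ± 0.99 (SD, n = 3), so that the mitochondrial mRNAs gained 1.37 on the vacuolar ones from input to T1 on the log2 scale. This is a description of 7 chosen mRNAs, and no p is given for it.

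Much of the spread in that measure was atp6v1f.L. Without it, a choice made after seeing the data, the values were -1.18, -1.38 and -1.33 in the input, 0.16, -0.52 and -0.27 at T1 and -1.19, -0.91 and -0.31 at T2. The gain at T1 was then 1.09, and T1 again lay wholly above the input. The vacuolar side was then the mean of atp6v0e1.L and atp6v1e1.L, with log2 fold changes of 2.00 and 0.94 at T1. The gain thus rested in part on atp6v1e1.L, which did not pass the test. At T2 the gain over the input was 0.53 with all members and -0.0085 without T2 replicate 3, and without atp6v1f.L it was 0.50, or 0.25 when T2 replicate 3 was left out as well. From T1 to T2 the measure changed by -0.84 with all members, by -0.41 without T2 replicate 1 and by -1.38 without T2 replicate 3. Without T1 replicate 1 or 3 it changed by -1.29 or -0.51.

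The most read mRNA of each enzyme was also compared directly. The ratio of atp5f1b.S to atp6v0e1.L in CPM was 0.875, 0.743 and 1.27 in the input, 1.36, 1.23 and 1.17 at T1 and 1.78, 1.69 and 0.935 at T2. The 3 conditions overlapped, with means of 0.963 ± 0.275, 1.25 ± 0.0994 and 1.47 ± 0.462 (SD, n = 3). The beta subunit mRNA was 5.31-fold and the e subunit mRNA 3.99-fold higher at T1 than in the input. The fitted values farther apart between the enzymes were those of atp5if1.S and atp5mc1.S (3.35 and 2.73) on one side and atp6v1e1.L (0.94) on the other. Of these, atp5if1.S and atp6v1e1.L did not pass the test. The reverse order also occurred, with atp5f1c.L (1.87) below atp6v0e1.L (2.00) and below LOC108711609 (2.30) outside the members. The 2.46 of atp6v1f.L, which rested on T1 replicate 1, lay above the values of atp5f1b.S (2.41) and atp5f1c.L. No difference between genes was tested.

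**Figure D3:**
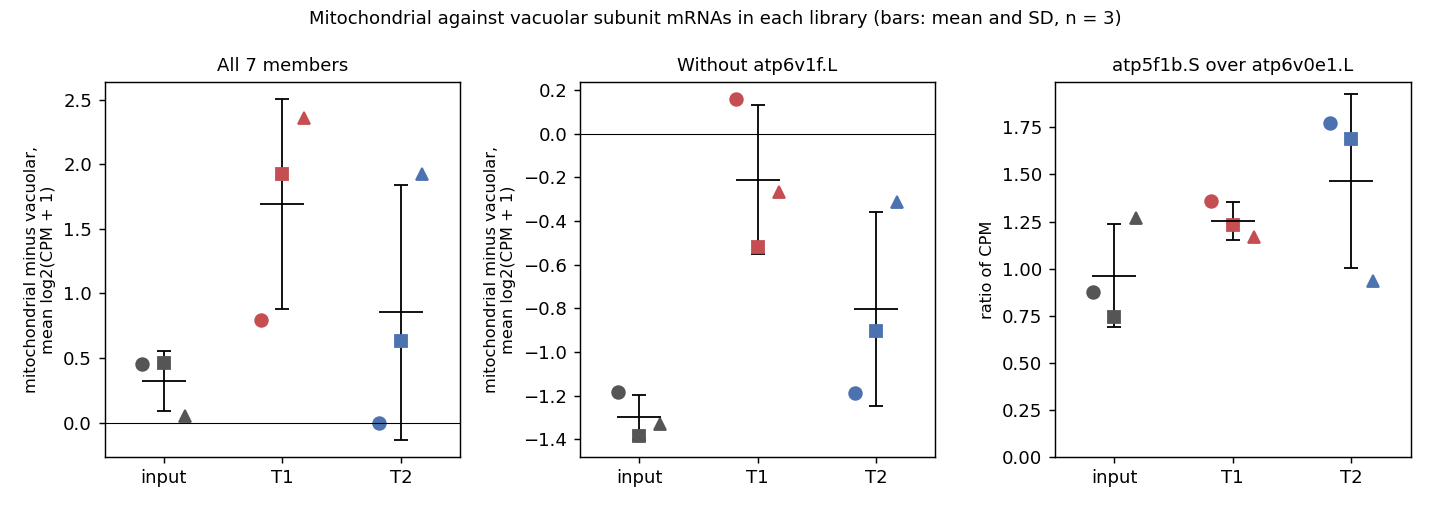
Mitochondrial against vacuolar subunit mRNAs in each library, as the difference of mean log2(CPM + 1) over all 7 members (left), the same without atp6v1f.L (middle) and the CPM ratio of the most read mRNA of each enzyme (right), with mean and SD (n = 3) in black. T1 lies above the input in the first 2 panels, at 0.79 to 2.36 against 0.052 to 0.46 in the left one, and the conditions overlap in the ratio.

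The members varied together over the 9 libraries to different degrees, given here as a description since the points share their conditions and depth. Pearson's r of log2(CPM + 1) was between 0.818 and 0.957 in the 6 pairs of mitochondrial mRNAs (n = 9 libraries). atp6v0e1.L of the vacuolar enzyme was as close to them, with r of 0.921 to atp5f1b.S, 0.964 to atp5f1c.L, 0.887 to atp5mc1.S and 0.958 to atp5if1.S, and its r to atp6v1e1.L of its own enzyme was 0.646. atp6v1f.L had r between -0.533 and -0.0595 with the other 6 members.

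Among 1758 other mRNAs of the study's table with a mean of at least 1 CPM, those whose profile over the 9 libraries was most like the mean mitochondrial profile were uqcrq.S (r = 0.985), XBXL10_1g13142, which has no symbol (0.977), mcub.L (0.976), pcna.L (0.975) and paaf1.S (0.973). uqcrq.S is a subunit of respiratory complex III, mcub.L a part of the mitochondrial calcium uniporter, pcna.L the sliding clamp of DNA replication and paaf1.S a factor of proteasome assembly. Most like the mean vacuolar profile were nt5dc3.L (0.922), trip4.L (0.912), selenos.L (0.910), nckap5l.S (0.906) and krt18.1.S (0.896). That mean includes atp6v1f.L, which had few reads and r of -0.533 with atp6v1e1.L and -0.329 with atp6v0e1.L. A gene close to the mean need not resemble any single vacuolar mRNA. These r are over 9 libraries in 3 conditions and were picked as the highest of 1758.

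The respiratory chain, which makes the proton gradient that the ATP synthase spends, had a higher median than the ATP synthase mRNAs at T1. At T1 6.44% of all tested genes rose and 5.08% fell. Of 7 listed subunits 4 rose and 0 fell, with a median log2 fold change of 3.45. They were cox5a.L of complex IV (3.71, adjusted p = 0.00741), uqcrq.S of complex III (3.65, 0.0127), and ndufc2.S (3.63, 0.0158) and ndufa9.L (3.45, 0.00516) of complex I. The cox5a.L mRNA had 12.5 ± 4.11 CPM in the input and 164 ± 95.5 CPM at T1 (SD, n = 3). Without input replicate 1 the adjusted p was 0.0399 for ndufa9.L, 0.0504 for cox5a.L, 0.0633 for uqcrq.S and 0.0944 for ndufc2.S. Without input replicate 2 it was 0.0419, 0.0533, 0.0778 and 0.0939, and without input replicate 3 it was 0.0276, 0.0362, 0.0639 and 0.0449.

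The 3 chain subunits that did not pass were, like atp6v1f.L, uneven between T1 libraries. ndufa2.L had 13.0, 0 and 0.0536 CPM in T1 replicates 1 to 3, ndufa5.L 0, 0.0285 and 46.9 CPM, and cox5b.1.L 25.6, 3.70 and 0 CPM. In the input they had 1.41 ± 0.820, 2.94 ± 0.831 and 1.11 ± 1.22 CPM (SD, n = 3). All were rare in the input. A single T1 library held nearly all of the T1 level in ndufa2.L (replicate 1) and ndufa5.L (replicate 3). In cox5b.1.L replicate 1 held most of it, and 2 T1 libraries lay above all input libraries. A 0 here allows up to 0.0827, 0.0855 and 0.161 CPM in T1 replicates 1, 2 and 3 (3 reads).

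Among 7 mRNAs for mitochondrial carriers, channels and assembly factors 3 rose at T1 and 0 fell (all tested genes: 6.44% and 5.08%), with a median of 1.27. slc25a3.L, the carrier that brings in the phosphate used by the ATP synthase, had 321 ± 64.7 CPM in the input and 1557 ± 554 CPM at T1 (log2 fold change 2.28, adjusted p = 0.00310), and it passed in all 18 alternative settings. cox18.L, which inserts a subunit of complex IV into the membrane, rose by 2.19 (adjusted p = 0.0196; 0.0976, 0.0995 and 0.0709 without input replicate 1, 2 and 3). cox14.S, an assembly factor of complex IV, was at the threshold (2.67, adjusted p = 0.0497) and passed in 5 of 18 settings. Its adjusted p was 0.170, 0.156 and 0.132 without input replicate 1, 2 and 3, 0.0513 and 0.0519 without T1 replicate 2 and 3, and 0.0752, 0.0807 and 0.0637 without T2 replicate 1, 2 and 3. The porins vdac1.L and vdac3.L had log2 fold changes of 1.12 and -0.11 (adjusted p = 0.197 and 0.971).

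The compartments that the vacuolar ATPase acidifies are represented by lysosome and late endosome mRNAs. Of 12 such mRNAs 0 rose and 1 fell at T1, with a median log2 fold change of 0.23. This is near the background over all tested genes, given above, and is no result about the list. The 1 was fuca1.S, for a lysosomal fucosidase, with 1 read in each T1 library against 2533 reads over the 3 input libraries. This was 322-fold lower (95% exact interval 110 to 1562, counting error only). The fit, which includes the spread between replicates, gave a log2 fold change of -8.22 (95% interval -11.8 to -4.68, adjusted p = 0.0114). For fuca1.S the adjusted p was 0.0729, 0.0726 and 0.0504 without input replicate 1, 2 and 3, and 0.0723 with limma voom.

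Ion and lipid pumps of the P-type, ATPases with no rotor, gave 0 that rose and 1 that fell among 5 at T1, with a median of -0.39, also too few to set apart from the background. The 1 was LOC108709736, matched to the lipid flippase ATP11A, with 7 reads over the T1 libraries against 1847 in the input. This was 101-fold lower (95% exact interval 48.7 to 251, counting error only). The fit gave a log2 fold change of -6.67 (95% interval -10.2 to -3.17, adjusted p = 0.0248). For LOC108709736 the adjusted p was 0.101, 0.123 and 0.0952 without input replicate 1, 2 and 3, 0.108 with limma voom and 0.0641 with a replicate block. Among the 9 egg markers 2 rose and 1 fell, against 6.44% and 5.08% of all tested genes. zp4.L (1.92, adjusted p = 0.0145) and npm2.L (2.13, 0.0101) rose, and gdf9.L fell by 1.51 on the log2 scale (0.0248). Without input replicate 1, 2 and 3 these were 0.0834, 0.0835 and 0.0571 for zp4.L, 0.0610, 0.0677 and 0.0366 for npm2.L and 0.110, 0.103 and 0.0603 for gdf9.L, and gdf9.L had 0.187 with limma voom. In the comparisons of T2 with the input and with T1, 0 genes of any of these lists passed the test.

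**Figure D4:**
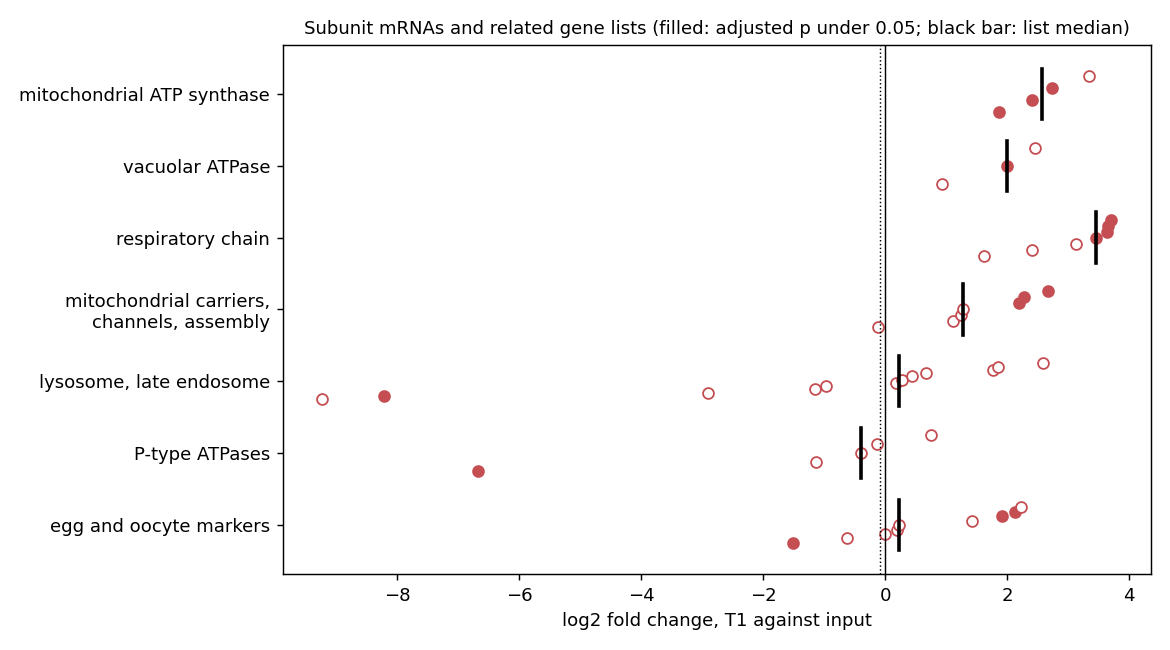
Log2 fold change at T1 against input (x axis) of the members and of 5 related gene lists (rows), 1 point per gene, filled where the adjusted p was under 0.05, with the list median as a black bar and the median of all tested genes dotted. The ATP synthase, vacuolar ATPase, respiratory chain and mitochondrial carrier medians are 2.57, 2.00, 3.45 and 1.27. The lysosome, P-type and egg marker medians are 0.23, -0.39 and 0.23. The vacuolar median depends on the setting and is 0.40 with limma voom and 0.76 with a replicate block. The fitted values beyond -6 are of genes with at most 3 reads in any T1 library.

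Some of the reads may belong to neighbours of the members. The span of atp5f1b.S holds 3 small RNA genes in the reference gene table and that of atp5mc1.S overlaps 1 long non-coding RNA gene, while the other 5 members overlap none. Of the genes named from the other lists, slc25a3.L and cox14.S also overlap other genes, so the same limit holds for them. The libraries were strand-specific, and which strand was counted is not given in the sources used here.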

How the data were processed

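RNA was extracted with TRIzol, depleted of ribosomal RNA and made into strand-specific libraries. Per the labels, the authors used Trim Galore, STAR and DESeq2. They deposited raw read counts per gene, and a normalized signal, which is counts divided by DESeq2's size factors, whose values came back as whole reads in 100% of cases (tolerance 0.05 reads). These equalled the raw counts in 71 of 72 values of the members and LOC108711609, and differed from them in at least 1 library in 4527 of the 25617 genes of that table, for a reason not given in the sources used here. The tests use the raw counts. Rows that name no gene (36.2% to 46.1% of reads) were left out.

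Counts were fitted with edgeR 4.0.16 (R 4.3.3; TMM, filterByExpr with a minimum count of 10 and total of 15, quasi-likelihood F test on condition, all 9 libraries). P-values were adjusted by Benjamini-Hochberg over 20148 genes, threshold 0.05. Standard errors, log2 fold change over the root of F, are approximate. DESeq2 1.42.0, limma 3.58.1 and other settings were alternatives. The fit was also run on simulated data, whose outcome is not reported here, and nothing is concluded from it. The spread between replicates, as biological coefficient of variation, was 0.579 for input, 1.52 for T1 and 1.08 for T2 libraries. The main fit gives each gene the same spread in all conditions, whereas limma voom was run with weights per condition. Positions are from RefSeq's gene table (v10.1).

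The members, the lists and the tests were chosen with earlier results of these data known. Named from the lists were genes with an adjusted p under 0.05 at T1; vdac1.L, vdac3.L, ndufa2.L, ndufa5.L and cox5b.1.L were named after their values were seen. The labels give replicates as separate samples, and the study calls them biological. The study counts fewer independent samples than libraries, whereas the main fit treats all 9 libraries as independent.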

Additional observations from a re-analysis of the deposited data

How the results depend on the processing

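The number of members that rose at T1 was 4 in all settings except DESeq2's Wald test (5) and the fits without 1 library, where it was 1 to 5. At T2 against the input it was 0, and 1 with DESeq2, with limma voom and with only the compared conditions. At T2 against T1 it was 0, and 2 with DESeq2 and without T1 replicate 1 (range 0 to 2 without 1 library). The mitochondrial median at T2 against the input was 0.58 to 1.61 without 1 library. The vacuolar median turned on atp6v1f.L. At T1 it was 0.40 with limma voom, 0.76 with the replicate block and 1.36 to 2.03 without 1 library. At T2 against the input it was 0.27 with limma voom, 0.31 with the replicate block and 0.26 to 0.92 without 1 library. At T2 against T1 it was -1.28 with median-of-ratios size factors and with DESeq2, -0.86 with library size only, -0.13 with limma voom, -0.45 with the replicate block and -1.17 to -0.78 without 1 library. The log2 fold change of atp6v1f.L reversed with limma voom (-1.47 at T1, -0.26 at T2, 1.21 from T1 to T2), with the replicate block (-1.24, -0.17 and 1.07) and without T1 replicate 1 (-4.55 at T1, 5.62 from T1 to T2). Without 1 library it was -4.55 to 3.28 at T1 and -2.18 to 5.62 from T1 to T2. That of atp6v1e1.L from T1 to T2 was 0.086 without T1 replicate 3 (-1.11 to 0.086 without 1 library). The cause of these changes was not tested.

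The main fit did not take the replicate numbers as pairs. Same-numbered deviations from the group means correlated at 0.00756, 0.210 and 0.0731 between T1 and input. They correlated at -0.0366 to 0.388 between T2 and input and at 0.0914 to 0.114 between T2 and T1. For libraries with different numbers the values were -0.180 to 0.102, -0.421 to 0.222 and -0.0597 to -0.0435. Between T2 and T1 every same-numbered value was thus the higher. The deviations cancel within each condition, so these values are not independent of one another, and no conclusion is drawn from them. The paper counts fewer biologically independent samples than libraries, and its input was collected before the spin. By that count libraries of different conditions share biological samples, which the main fit leaves out of account. Its standard errors and p-values treat the libraries as independent. Whether the replicate numbers mark these samples is not stated and was not tested. With the replicate block the members called stayed at 4, 0 and 0, and the genes called over all were 1499, 1 and 0. In the main fit the genes called were 2320, 0 and 20. Over all tested genes the count at T1 was 5630 with DESeq2, 1288 with limma voom and 4013 with only the compared conditions. With library size only the median over all tested genes at T1 was -0.25 in place of -0.089, and the mitochondrial and vacuolar medians 2.34 and 1.76.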
